A study of Mus musculus with 4 samples.

Results

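Infarcted left ventricle was compared between a library labelled Neil3-/- and a wild-type library, which are 2 of the 4 libraries of an RNA sequencing series. The members were taken from the sample labels, by genotype and region, with 1 library per genotype. Both libraries came from the infarcted part of the left ventricle of C57BL/6 mice aged 8 weeks, 3 days after an experimental myocardial infarction. The other two libraries came from non-infarcted left ventricle, 1 wild type and 1 labelled Neil3-/-, at the same age and time, and are set beside the infarcted ones. Neil3-/- means that both copies of Neil3 are disrupted. The labels do not give the deleted exons, nor if RNA of 1 mouse or of pooled mice went into a library, nor whether both regions came from the same mice. With 1 library on each side there is no replicate check. All ratios describe these libraries, with intervals for counting error only, and no p-value is given.

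Neil3 is a DNA glycosylase of the Nei-like family. Such enzymes cut a damaged base out of DNA and so start base excision repair, and Neil3 acts on oxidised bases, best in single-stranded DNA, and is known from proliferating cells. In the days after an infarction the dead muscle is cleared by neutrophils and monocyte-derived macrophages, and fibroblasts then turn into matrix-secreting myofibroblasts that build the scar. Surviving cardiomyocytes at its border switch on a fetal and stress programme that includes the natriuretic peptides.

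Unique reads came to 17.3 M in the wild-type infarcted library and 18.2 M in the infarcted library labelled Neil3-/-, against 14.9 M and 14.3 M in non-infarcted tissue. Levels are in RPKM, reads per kilobase of gene, scaled to the reads of the library. In the following, a pair of levels gives wild type first and the library labelled Neil3-/- second. Ratios were taken on the log2 scale of (RPKM + 1), which understates differences of weakly expressed genes, for the 12464 genes at 1 RPKM or more in either infarcted library. Counts of genes past 1.5-fold or 2-fold refer to that scale, while folds of single genes are plain ratios of RPKM. Their median log2 ratio was 0.02, with 5th and 95th percentiles of -0.39 and 0.40. At least 1.5-fold higher in the library labelled Neil3-/- were 188 genes (1.51%), and 193 (1.55%) were at least 1.5-fold lower. Past 2-fold there were 31 higher (0.249%) and 30 lower (0.241%), of which 19 and 11 were ribosomal or small RNA genes. The tissue matched its label: 5 defining cardiomyocyte markers summed to 15011 and 9829 RPKM in the infarcted libraries and to 29350 and 27736 RPKM in the non-infarcted ones, and 4 neutrophil markers to 193 and 228 against 26.3 and 22.95 RPKM. Markers of lung, mesothelium, T cells and adipocytes each summed to under 1 RPKM in all 4 libraries.

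**Figure D1:**
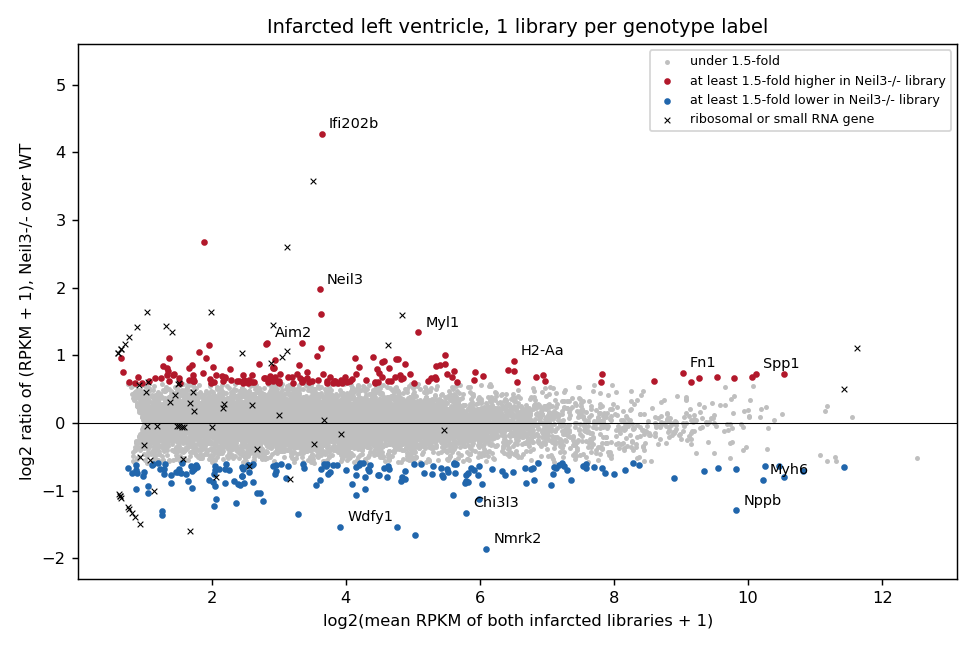
Log2 ratio of (RPKM + 1), library labelled Neil3-/- over wild type, against mean level in infarcted tissue, 1 point per gene of the 12464 compared. Coloured points are at least 1.5-fold apart and crosses are ribosomal or small RNA genes. Most points lie near 0, Ifi202b (4.28) and Neil3 (1.97) stand far above, and Nmrk2 (-1.85) and Nppb (-1.29) lie far below.

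Neil3 itself went against the genotype label. It stood at 3.95 and 18.5 RPKM in infarcted tissue, from 155 and 763 reads, and at 1.83 and 12.05 RPKM in non-infarcted tissue. Its infarcted level was 4.67-fold higher (95% interval 3.92 to 5.58) in the library labelled Neil3-/-. Both libraries labelled Neil3-/- were thus above both wild-type ones. Reads covered 73.4% of its gene model in wild type and 71.5% in the library labelled Neil3-/-. Per gene, the files do not show which exons hold the reads, so the value checks neither the deletion nor the label. The direction of every difference here therefore rests on the labels alone.

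The other DNA glycosylases and the later steps of the repair pathway were close to equal in infarcted tissue. Of 10 compared glycosylases, Neil3 alone passed 1.5-fold. Ogg1, which removes oxidised guanine, stood at 6.40 and 6.71 RPKM, and Ung, the uracil glycosylase, at 6.14 and 5.77 RPKM. The lowest ratio was that of Mpg, the alkyladenine glycosylase, at 6.21 and 5.10 RPKM (log2 ratio -0.24). None of the 12 genes that act after base removal passed 1.5-fold in either direction. Among them, Pcna, the sliding clamp of replication and repair, had the highest log2 ratio, 0.32, from 81.02 and 101 RPKM. The list of 10 genes of DNA methylation and hydroxymethylation held no gene past 1.5-fold (median log2 ratio 0.08).

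The highest ratio of all named genes belonged to Ifi202b, a member of the p200 family of interferon-inducible proteins that bind DNA in cytosol and nucleus. It had 7 reads in wild-type and 744 in the infarcted library labelled Neil3-/-, 0.226 and 22.8 RPKM, which is 101-fold higher (48.7 to 252). In non-infarcted tissue it stood at 0.112 and 9.08 RPKM. Reads covered 14.5% of its gene model in wild-type and 91.6% in the infarcted library labelled Neil3-/-. Its neighbours in the family went both ways. Aim2, the cytosolic DNA sensor that assembles an inflammasome, was at 3.33 and 8.87 RPKM, 2.66-fold higher (2.20 to 3.24). Pydc3 was lower, at 2.44 and 0.349 RPKM, a ratio of 0.143 (0.0833 to 0.233), with reads on 75.03% and 23.6% of its model. Mnda was 2.09-fold lower (1.63 to 2.68), with reads on only 34.8% and 19.7% of its model. Pyhin1 was 2.12-fold lower (1.75 to 2.56), with reads on 87.0% and 72.1%. Of the 9 family members that were listed and compared, 2 were at least 1.5-fold higher and 3 lower, and the same numbers passed in non-infarcted tissue. Several of these genes are close relatives in sequence, and reads of one may have been counted for another, so their separate values are uncertain.

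Interferon-stimulated genes outside that family did not share this spread. None of 27 passed 1.5-fold, with a median log2 ratio of 0.03 against 0.02 for all compared genes. Irf7, the transcription factor that amplifies interferon production, stood at 22.1 and 16.96 RPKM, and Mx1, an antiviral GTPase, at 2.68 and 3.55 RPKM. Among 11 guanylate-binding and immunity-related GTPases none passed 1.5-fold, with log2 ratios from -0.13 to 0.24. All 16 innate sensors and inflammasome genes of the list lay above the median of all genes. Of these only Tlr7, an endosomal RNA receptor, passed 1.5-fold, at 9.48 and 14.8 RPKM (1.56-fold higher, 1.41 to 1.73). That list is not complete, and Aim2, described above, is not on it. Tlr8 and Nlrp1b, also not listed and chosen after their values were seen, passed 1.5-fold as well. Tlr8 was 1.95-fold higher (1.70 to 2.23), at 5.98 and 11.7 RPKM, and Nlrp1b 1.93-fold higher (1.53 to 2.44).

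Several genes with large ratios lie close to Neil3 or to Ifi202b along the chromosomes. Gene order was read from a RefSeq table of another assembly, and the windows were chosen after the values were seen. Within 50 compared genes on either side of Neil3 on chromosome 8, 7 of 100 genes were at least 1.5-fold higher and 2 lower (9%), against 11 of 567 (1.94%) on the rest of that chromosome and 3.06% of all compared genes. The 7 were AI429214, Msr1, Zdhhc2, Pdgfrl, Pdlim3, Galnt7 and March1. Pdgfrl, which resembles a PDGF receptor, stood at 5.21 and 13.1 RPKM (2.52-fold higher, 2.07 to 3.08). Pdlim3, a protein of the muscle Z-disc, stood at 17.3 and 34.3 RPKM (1.98-fold higher, 1.77 to 2.22), and March1, a ubiquitin ligase that takes MHC class II off the cell surface, at 2.53 and 5.17 RPKM (2.04-fold higher, 1.71 to 2.43). The 2 lower genes were Slc25a4, the mitochondrial ADP/ATP carrier, and Dctd, a deaminase of nucleotide metabolism.

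Around Ifi202b on chromosome 1, the same window held 3 higher and 10 lower genes of 100 (13%), against 29 of 630 (4.60%) on the rest of that chromosome. Among the 10 were Pcp4l1, 48.6 and 14.8 RPKM (3.28-fold lower, 2.94 to 3.67), and Dusp23, a phosphatase, 8.34 and 3.22 RPKM (2.59-fold lower, 1.998 to 3.39). Aim2, Pydc3, Mnda and Pyhin1, the family members described above, also lie on chromosome 1. Neighbours in both windows count among the genes past 1.5-fold, and the separate values of the family members are uncertain, as said above. In non-infarcted tissue 4 genes of the window around Neil3 and 12 of the window around Ifi202b were past 1.5-fold, where 1.75% of all compared genes were. Around Neil3 these were AI429214, Pdgfrl and Pdlim3, higher in both regions, and Lzts1. Lzts1 was lower and had not passed 1.5-fold in infarcted tissue (log2 ratio -0.35). Chromosome 1 as a whole had 5.88% of its 731 compared genes past 1.5-fold in either direction, the highest share of any chromosome.

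**Figure D2:**
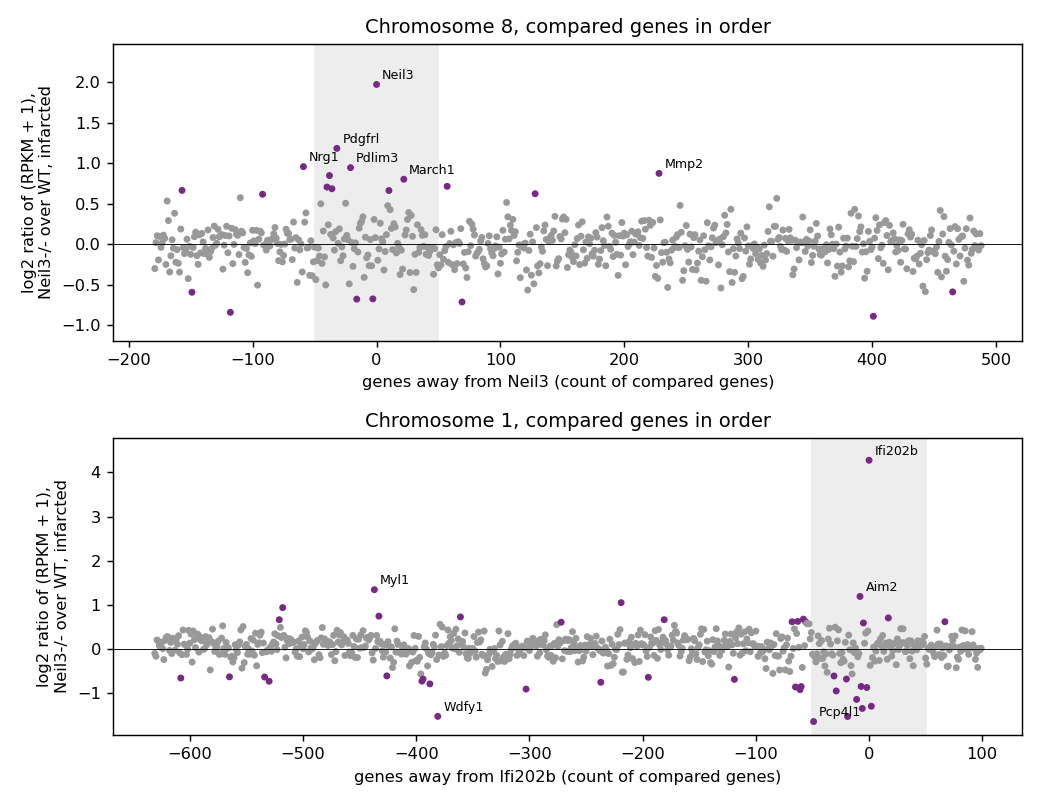
Log2 ratio of (RPKM + 1) in infarcted tissue, library labelled Neil3-/- over wild type, for compared genes of chromosomes 8 and 1 in order, counted from Neil3 and Ifi202b. Purple points are at least 1.5-fold apart and the grey band spans 50 genes to each side, holding 9 and 13 such genes besides Neil3 and Ifi202b themselves.

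Genes of stressed cardiomyocytes were the group furthest below the rest. Of 15 compared cardiac stress and fetal genes, 10 were at least 1.5-fold lower in the library labelled Neil3-/-, none was higher, and 14 lay below the median of all genes. Their median log2 ratio was -0.67 in infarcted and -0.19 in non-infarcted tissue. In bulk tissue, fewer cells of a type and less RNA per cell cannot be told apart, for cardiomyocytes here and for each cell type that follows. Promoter sequences of Nppb and Ankrd1, 2 of the 10 lower genes, are shown for the motif letters they share.
The 250 bases before the RefSeq start of each gene are given 5' to 3' on the strand of the gene (build GRCm38.p6; Nppb at chr4:147985650-147985899, plus strand; Ankrd1 at chr19:36119845-36120094, minus strand). Capitals mark matches, on either strand, to the M-CAT motif CATTCC and the GATA motif AGATAA, letters that TEAD and GATA factors are known to bind.
Nppb: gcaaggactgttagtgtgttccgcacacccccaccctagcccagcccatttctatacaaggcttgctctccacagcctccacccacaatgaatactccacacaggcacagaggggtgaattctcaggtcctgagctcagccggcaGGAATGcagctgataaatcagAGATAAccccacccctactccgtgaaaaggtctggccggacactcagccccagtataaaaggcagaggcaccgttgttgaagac
Ankrd1: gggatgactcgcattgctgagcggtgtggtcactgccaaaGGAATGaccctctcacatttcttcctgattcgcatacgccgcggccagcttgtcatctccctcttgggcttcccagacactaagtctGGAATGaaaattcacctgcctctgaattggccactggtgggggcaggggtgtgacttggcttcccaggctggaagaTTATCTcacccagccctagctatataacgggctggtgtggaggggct
Nppb holds an M-CAT match 105 bases and a GATA match 84 bases before its start, and Ankrd1 holds M-CAT matches at 210 and 123 bases and a GATA match at 47 bases. An M-CAT match was found for 6 of 16 listed stress genes with a promoter sequence and for 14.4% of all 27025 genes, and a GATA match for 3 of 16 and 11.4%. A match describes letters and not a site in use.

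Nppb codes for B-type natriuretic peptide, which ventricular muscle secretes under strain. It stood at 1279 and 524 RPKM in infarcted tissue and at 750.0 and 562 RPKM in non-infarcted tissue. The infarcted level was 2.44-fold lower (2.38 to 2.51) in the library labelled Neil3-/-. Wild-type infarcted tissue was thus above the 3 other libraries, which lay closer together. Ankrd1, a stretch-responsive titin-binding protein, stood at 1885 and 1083 RPKM in infarcted and 1994 and 1632 RPKM in non-infarcted tissue (1.74-fold lower, 1.72 to 1.76 in infarcted tissue). Nmrk2, the muscle kinase that makes NAD from nicotinamide riboside, had the lowest ratio among genes at 5 RPKM or more with an established name. Its levels were 106 and 28.7 RPKM in infarcted and 113 and 64.8 RPKM in non-infarcted tissue, 3.70-fold lower (3.45 to 3.98) in infarcted tissue. Both libraries labelled Neil3-/- were below both wild-type ones. Of the 14 compared genes of NAD metabolism, no other gene passed 1.5-fold.

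Further members of the list followed the same direction. Xirp1, an actin-binding protein of the intercalated disc, was 1.90-fold lower (1.86 to 1.95), at 174 and 91.6 RPKM. Ankrd2, a relative of Ankrd1, was 2.37-fold lower (1.76 to 3.24), and Gdf15, a secreted stress signal, was 1.67-fold lower (1.47 to 1.89). Nppa, the atrial natriuretic peptide gene, stood at 2498 and 1805 RPKM, short of 1.5-fold (1.38-fold lower, 1.36 to 1.41). Acta1, the skeletal alpha-actin of the fetal heart, was the one member above the median, at 476 and 604 RPKM. The defining atrial markers Myl7, Myl4 and Sln summed to 2.52 and 2.49 RPKM in the infarcted libraries and to 120.0 and 28.9 RPKM in the non-infarcted ones.

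Contractile genes were lower as well, by less. The 28 genes of heart myosin, thin filament and Z-disc had a pooled median log2 ratio of -0.51, with 25 below 0, against -0.08 in non-infarcted tissue. Myh6, the fast alpha myosin heavy chain of adult mouse heart, stood at 1528 and 855 RPKM in infarcted and 4231 and 3868 RPKM in non-infarcted tissue, 1.79-fold lower (1.77 to 1.80) in infarcted tissue. Both infarcted libraries were below both non-infarcted ones. Myh7, the fetal heavy chain, stood at 64.7 and 30.5 RPKM in infarcted and 158 and 85.9 RPKM in non-infarcted tissue, and was 2.12-fold lower (2.03 to 2.21) in infarcted tissue. Actn2, the actinin that anchors thin filaments, was 1.75-fold lower (1.72 to 1.78), and Tnni3, cardiac troponin I, was 1.59-fold lower (1.55 to 1.64). Myot, a Z-disc protein, was the exception past 1.5-fold, at 6.38 and 10.1 RPKM, 1.58-fold higher (1.34 to 1.86). Measured from the contractile median, Nmrk2 lay a further -1.34 log2 units below it, Nppb -0.77, Ankrd2 -0.52 and Xirp1 -0.41, while Nppa lay at 0.04 and Acta1 0.86 above.

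Genes for excitation and calcium handling lay in the same range. All 10 compared calcium cycling genes were below the median of all genes, and 3 were at least 1.5-fold lower. These were Jph2, which holds the junction of T-tubule and sarcoplasmic reticulum (1.62-fold lower, 1.56 to 1.68), Slc8a1, the sodium-calcium exchanger (1.61-fold lower, 1.57 to 1.65), and Casq2, the calcium store protein (1.53-fold lower, 1.48 to 1.58). Atp2a2, the calcium pump of the reticulum, was close to equal, with a log2 ratio of -0.15 from 598 and 539 RPKM. Of 12 ion channel genes 4 were lower by 1.5-fold or more, among them Hcn2, a pacemaker channel, at 3.97 and 1.79 RPKM (2.22-fold lower, 1.75 to 2.83). The potassium channels Kcnd2 and Kcna5 had log2 ratios of 0.09 and 0.12. Cav3, the muscle caveolin, was the lowest of 13 intercalated disc and caveolar genes, at 85.8 and 38.9 RPKM (2.20-fold lower, 2.03 to 2.39). Among 18 cardiac transcription factors, 3 passed 1.5-fold and 17 lay below the median: Myocd stood at 14.8 and 7.80 RPKM, Gata4 at 56.2 and 33.6 RPKM and Irx4 at 8.91 and 5.49 RPKM.

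Energy metabolism genes were lower by a smaller and more even amount. All 24 respiratory chain subunits and all 14 citrate cycle enzymes lay below the median of all genes, with median log2 ratios of -0.31 and -0.27, and none reached 1.5-fold. In non-infarcted tissue these medians were 0.02 and 0.01. Cox6a2, a heart and muscle subunit of cytochrome oxidase, stood at 827 and 609 RPKM in infarcted and 2062 and 2054 RPKM in non-infarcted tissue. Of 19 fatty acid genes 17 were below the median in infarcted tissue (median log2 ratio -0.24). In non-infarcted tissue 17 of the 19 were above the median there (median log2 ratio 0.15). Pdk4, the kinase that shuts pyruvate out of the citrate cycle, was higher in both regions, at 30.6 and 56.7 RPKM in infarcted and 64.7 and 156 RPKM in non-infarcted tissue (1.86-fold higher, 1.75 to 1.96 in infarcted tissue). Both libraries labelled Neil3-/- were above the wild-type library of their region. Glycolysis and hypoxia genes had 5 of 28 at least 1.5-fold lower, led by Egln3, an oxygen-sensing hydroxylase (1.83-fold lower, 1.73 to 1.94), Slc2a4, the insulin-responsive glucose transporter (1.69-fold lower, 1.58 to 1.81), and Vegfa, the growth factor for vessels (1.63-fold lower, 1.55 to 1.71).

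**Figure D3:**
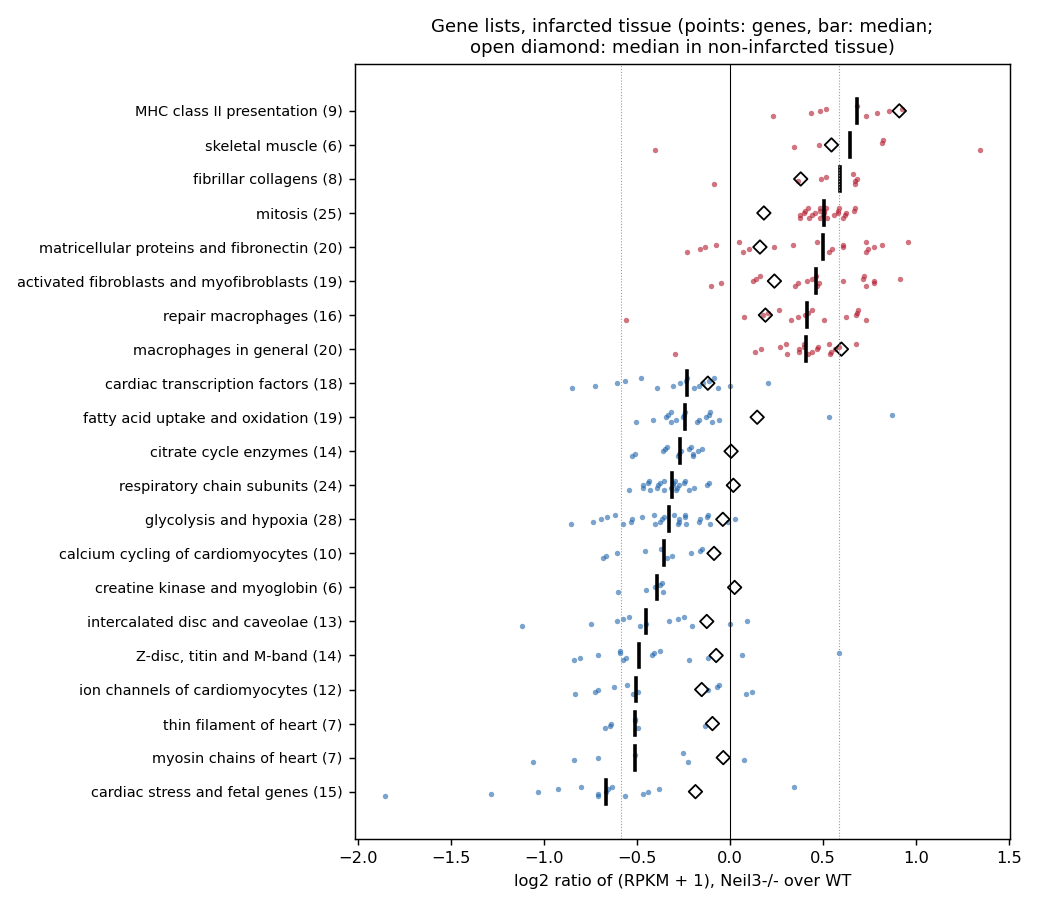
Log2 ratio of (RPKM + 1), library labelled Neil3-/- over wild type, for members of the 21 gene lists that were shifted in infarcted tissue. Points are genes, bars are list medians, open diamonds are the medians in non-infarcted tissue, numbers in parentheses are compared members and dotted lines mark 1.5-fold. The 13 lower lists have medians from -0.67 to -0.23 and the 8 higher lists from 0.41 to 0.68.

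Genes of MHC class II antigen presentation were the group furthest above the rest. All 9 compared members lay above the median of all genes, 5 were at least 1.5-fold higher in the library labelled Neil3-/-, and the median log2 ratio was 0.68 in infarcted and 0.91 in non-infarcted tissue. The promoters of H2-Aa and H2-Eb1, the members with the highest ratios, are shown because both hold the Y box of class II genes.
They are the 250 bases before the RefSeq start, 5' to 3' on the strand of the gene (GRCm38.p6; H2-Aa at chr17:34287824-34288073, minus strand; H2-Eb1 at chr17:34305617-34305866, plus strand). Capitals mark a match on either strand to CTGATTGG, the Y box that the factor NF-Y is known to bind.
H2-Aa: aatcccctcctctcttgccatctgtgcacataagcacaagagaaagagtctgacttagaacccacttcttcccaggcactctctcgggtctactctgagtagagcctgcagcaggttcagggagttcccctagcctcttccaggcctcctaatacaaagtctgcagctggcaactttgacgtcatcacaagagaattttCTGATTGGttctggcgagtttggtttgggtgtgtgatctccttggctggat
H2-Eb1: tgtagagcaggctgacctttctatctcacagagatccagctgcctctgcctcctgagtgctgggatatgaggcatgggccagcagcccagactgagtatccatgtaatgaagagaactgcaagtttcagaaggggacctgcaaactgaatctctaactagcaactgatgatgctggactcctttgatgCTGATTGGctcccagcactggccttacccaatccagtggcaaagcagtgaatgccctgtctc
The match lies 51 bases before the start of H2-Aa and 62 bases before that of H2-Eb1. It was found for 3 of 6 class II genes with a promoter sequence, against 4.43% of all 27025 genes.

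H2-Aa, a class II alpha chain, stood at 61.5 and 118 RPKM in infarcted and 25.02 and 51.6 RPKM in non-infarcted tissue. Its infarcted level was 1.91-fold higher (1.78 to 2.05). In each region the library labelled Neil3-/- was above wild type, and each infarcted library was above the non-infarcted one of its genotype. H2-Eb1, a beta chain, was 1.83-fold higher (1.68 to 1.99), at 29.1 and 53.4 RPKM, and H2-Ab1, the other beta chain, 1.74-fold higher (1.62 to 1.87). Cd74, the invariant chain that fills the groove of new class II molecules, stood at 169 and 281 RPKM (1.66-fold higher, 1.60 to 1.73), and H2-DMa, which helps load peptides, at 11.1 and 18.5 RPKM. Ciita, the transactivator of class II genes, had a log2 ratio of 0.48, short of 1.5-fold. Class I presentation genes were near the background, with none of 11 past 1.5-fold and a median of 0.10.

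Macrophage genes were higher too, by less in infarcted than in non-infarcted tissue. Of 20 general macrophage genes, 19 lay above the median of all genes in infarcted tissue and 1 passed 1.5-fold, with a median log2 ratio of 0.41. In non-infarcted tissue, where 1.14% of all compared genes were at least 1.5-fold higher, 11 of the 20 passed and the median was 0.60. The difference between regions was not tested. Ms4a7, a membrane protein of macrophages, stood at 35.9 and 57.9 RPKM in infarcted and 13.1 and 29.5 RPKM in non-infarcted tissue. Lyz2, the macrophage lysozyme, stood at 661 and 957 RPKM, 1.45-fold higher (1.42 to 1.48) in infarcted tissue, although reads may be shared with its close copy Lyz1. The 4 defining markers Cd68, Csf1r, Adgre1 and C1qa summed to 460 and 618 RPKM in infarcted and to 211 and 327 RPKM in non-infarcted tissue.

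Genes of macrophages that clear debris and support repair had 5 of 16 members at least 1.5-fold higher, and 15 above the median. Spp1, the secreted protein osteopontin, stood at 837 and 1388 RPKM (1.66-fold higher, 1.63 to 1.69). Gpnmb, a glycoprotein of phagocytic macrophages, was 1.63-fold higher (1.54 to 1.72), and Apoe, the lipid carrier, 1.60-fold higher (1.56 to 1.63). Hmox1, which breaks down haem, stood at 304 and 469.8 RPKM (1.54-fold higher, 1.502 to 1.59). Outside that list, Slc40a1, the iron exporter ferroportin, stood at 4.27 and 9.07 RPKM (2.13-fold higher, 1.83 to 2.48), and Fcrls, an Fc receptor-like protein of macrophages, at 28.8 and 58.8 RPKM (2.04-fold higher, 1.89 to 2.20). In the opposite direction and on the inflammatory monocyte list, Chi3l3, the chitinase-like protein Ym1 of alternatively activated macrophages and monocytes, stood at 77.8 and 30.5 RPKM in infarcted and 10.4 and 2.99 RPKM in non-infarcted tissue, 2.55-fold lower (2.35 to 2.76) in infarcted tissue. It too has close copies in the genome. Resident macrophage genes were less shifted, with 1 of 13 past 1.5-fold (Igf1, 7.71 and 12.2 RPKM) and a median of 0.16.

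Neutrophil and inflammatory monocyte genes were not shifted as groups. Of 14 neutrophil genes 1 was higher and 1 lower by 1.5-fold, with a median log2 ratio of 0.13. S100a9, an abundant calcium-binding protein of neutrophils, stood at 73.2 and 92.4 RPKM. Clec4d, a lectin receptor, was 1.66-fold higher (1.48 to 1.87), and Lcn2, the iron-binding lipocalin, was 1.71-fold lower (1.55 to 1.90), at 68.6 and 40.1 RPKM in infarcted and 59.1 and 33.5 RPKM in non-infarcted tissue. Ccr2, the receptor that brings monocytes out of bone marrow, stood at 29.3 and 42.1 RPKM and Ly6c2, a monocyte surface marker, at 7.88 and 5.78 RPKM. Lymphocyte genes were scarce, with Cd79a of B cells at 2.66 and 3.06 RPKM.

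Signals between these cells were mixed. Among 11 cytokine genes 2 were at least 1.5-fold higher. Il33, an alarmin released from damaged cells, stood at 12.3 and 22.5 RPKM (1.83-fold higher, 1.65 to 2.04) and Il18, which inflammasomes process, at 2.07 and 3.81 RPKM (1.84-fold higher, 1.17 to 2.93). Il1b, another inflammasome product, was at 13.7 and 11.4 RPKM, and Il6 at 10.3 and 14.6 RPKM, neither past 1.5-fold. Of 21 chemokines 3 were higher and 1 lower by 1.5-fold or more. Ppbp, the platelet chemokine precursor, stood at 17.8 and 35.3 RPKM in infarcted and 3.15 and 2.09 RPKM in non-infarcted tissue, and was 1.98-fold higher (1.74 to 2.26) in infarcted tissue. Pf4, another platelet chemokine, stood at 135 and 169 RPKM. Of 10 compared erythrocyte and platelet genes, 8 lay below the median of all genes (median log2 ratio -0.19), and Ppbp alone passed 1.5-fold. Cxcl5, a neutrophil attractant, was 1.92-fold higher (1.71 to 2.16), and Ccl11, the eosinophil attractant eotaxin, 1.79-fold higher (1.44 to 2.23). Ccl24, a second eotaxin, was lower, at 2.83 and 1.28 RPKM (2.21-fold lower, 1.41 to 3.54).

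Genes of scar matrix were higher in the library labelled Neil3-/-. Of 8 compared fibrillar collagen genes, 4 passed 1.5-fold and 7 lay above the median of all genes, with a median log2 ratio of 0.59 in infarcted and 0.38 in non-infarcted tissue. Col1a1, the alpha 1 chain of type I collagen, stood at 821 and 1316 RPKM in infarcted and 439.9 and 646 RPKM in non-infarcted tissue (1.60-fold higher, 1.59 to 1.62 in infarcted tissue). Col1a2 was 1.59-fold higher (1.57 to 1.61) and Col3a1, the chain of type III collagen, 1.58-fold higher (1.57 to 1.60). The infarcted library labelled Neil3-/- was above the other 3 libraries for all of these chains. Other collagens had 2 of 12 past 1.5-fold, Col14a1 at 18.5 and 28.9 RPKM and Col12a1 at 16.2 and 24.96 RPKM. None of 19 genes that fold and crosslink collagen passed. Among these, Lox, the main crosslinking oxidase, stood at 143 and 207 RPKM (1.44-fold higher, 1.40 to 1.48).

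Proteins that sit in the matrix and signal to cells were higher by similar amounts. Of 20 matricellular genes including fibronectin 8 were at least 1.5-fold higher, with a median log2 ratio of 0.50 in infarcted and 0.16 in non-infarcted tissue. Fn1, fibronectin, stood at 389 and 651 RPKM in infarcted and 147 and 206 RPKM in non-infarcted tissue (1.67-fold higher, 1.66 to 1.69 in infarcted tissue). Thbs2 and Thbs4, thrombospondins of wound matrix, were 2.02-fold higher (1.88 to 2.17) and 1.80-fold higher (1.66 to 1.95). Among 14 matrix proteoglycans 4 passed, the highest being Fmod, fibromodulin, at 1.30 and 3.75 RPKM (2.89-fold higher, 2.17 to 3.89), and Aspn, asporin, at 35.1 and 60.7 RPKM (1.73-fold higher, 1.62 to 1.84). Of 22 proteases and inhibitors, Mmp2, a gelatinase of fibroblasts, stood at 19.8 and 37.1 RPKM (1.88-fold higher, 1.74 to 2.02) and Mmp12, the macrophage elastase, at 12.4 and 21.2 RPKM (1.70-fold higher, 1.56 to 1.86). Timp4, a metalloproteinase inhibitor expressed in heart, was lower, at 4.13 and 2.06 RPKM (2.01-fold lower, 1.43 to 2.86).

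Activated and resting fibroblast genes differed in their position. Of 19 genes of activated fibroblasts and myofibroblasts, 7 were at least 1.5-fold higher and 17 above the median (median log2 ratio 0.46), while none of 14 resting fibroblast genes passed in either direction (median -0.02). Cthrc1, secreted by scar fibroblasts, stood at 66.1 and 114 RPKM in infarcted and 27.9 and 49.1 RPKM in non-infarcted tissue (1.72-fold higher, 1.61 to 1.84 in infarcted tissue). Sfrp2, a secreted modulator of Wnt signals, was 1.94-fold higher (1.75 to 2.16), and Tagln, an actin-binding protein of myofibroblasts and smooth muscle, 1.64-fold higher (1.56 to 1.73), at 91.7 and 151 RPKM. Pdgfra, the growth factor receptor that marks fibroblasts, stood at 19.3 and 21.7 RPKM. The receptor gene Tgfbr1 had the highest log2 ratio of 23 TGF-beta and BMP genes, 0.53, and none of these passed 1.5-fold. Outside these lists, Glipr1, a secreted protein of the CAP family, was 2.05-fold higher (1.76 to 2.39), at 13.3 and 27.2 RPKM.

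**Figure D4:**
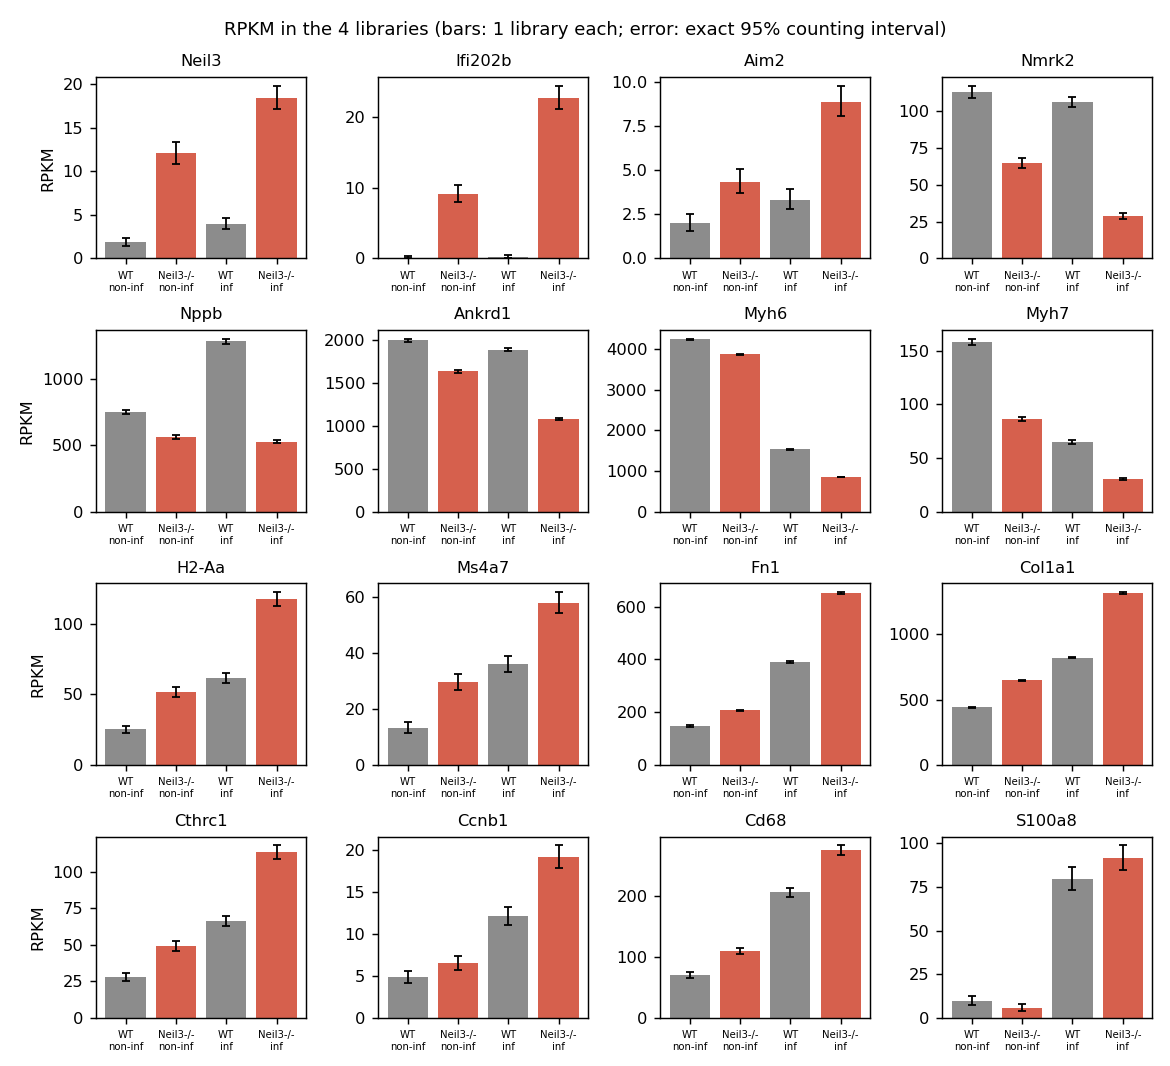
RPKM of 16 genes in each of the 4 libraries, with the exact 95% counting interval of each library's reads (1 library per bar). Nppb was highest in wild-type infarcted tissue, at 1279 RPKM, and Fn1 and Col1a1 in the infarcted library labelled Neil3-/-, at 651 and 1316 RPKM.

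Genes of mitosis were higher as a group, although single ratios were small. All 25 compared members lay above the median of all genes, with log2 ratios from 0.38 to 0.67, a median of 0.50, and 5 past 1.5-fold. In non-infarcted tissue the median was 0.18 and none passed. Mki67, the proliferation marker, stood at 28.8 and 46.4 RPKM in infarcted and 15.1 and 18.4 RPKM in non-infarcted tissue (1.61-fold higher, 1.56 to 1.67 in infarcted tissue). Ccnb1, the cyclin of mitotic entry, was 1.58-fold higher (1.41 to 1.77), at 12.2 and 19.2 RPKM. S phase genes lay above the median in 21 of 21 cases, with a median of 0.24 and none past 1.5-fold. Rrm2, the ribonucleotide reductase subunit of S phase, had the highest log2 ratio, 0.53. Cdkn1a, the p21 inhibitor of the cell cycle, stood at 100.2 and 73.6 RPKM (log2 ratio -0.44), and 1 of 21 DNA damage and p53 target genes passed, Gadd45g, a growth arrest gene, 1.53-fold lower (1.39 to 1.68).

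Vessel and smooth muscle genes were nearer the background. None of 20 endothelial genes passed 1.5-fold, and 17 lay below the median of all genes (median log2 ratio -0.14). Pecam1, an adhesion molecule of endothelium, had a log2 ratio of -0.07, and Nos3, endothelial nitric oxide synthase, stood at 29.1 and 22.3 RPKM. Among 17 smooth muscle and pericyte genes, 2 were at least 1.5-fold higher and 1 lower, with a median log2 ratio of 0.01. Cnn1, calponin, was 2.32-fold higher (1.99 to 2.72), at 6.85 and 15.9 RPKM. The other defining markers of that list, Myh11 and Rgs5, had log2 ratios of 0.14 and 0.01. Outside that list, the enteric smooth muscle actin Actg2 stood at 3.33 and 8.69 RPKM (2.61-fold higher, 2.003 to 3.43). Of 23 immediate early genes 19 lay below the median of all genes (median log2 ratio -0.16). At least 1.5-fold lower were 2 of them, Ier3, 111 and 66.7 RPKM, and Fosb, 2.01 and 0.871 RPKM. In non-infarcted tissue 18 of 22 immediate early genes lay below the median there (median log2 ratio -0.24). Myl1, the fast skeletal myosin light chain, stood at 18.1 and 47.5 RPKM in infarcted and 37.8 and 84.6 RPKM in non-infarcted tissue (2.62-fold higher, 2.30 to 2.99 in infarcted tissue). Skeletal muscle genes were higher as a group, with 3 of 6 compared genes past 1.5-fold and 5 above the median of all genes. Their median log2 ratio was 0.65 in infarcted and 0.54 in non-infarcted tissue. The defining markers Myh1, Myh4, Tnnt3 and Actn3 summed to 4.03 and 5.93 RPKM only, nearly all of it from Tnnt3.

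Lists of housekeeping function stayed near 0. The median log2 ratio was -0.02 for 21 ribosomal protein genes, -0.08 for 18 proteasome genes and 0.09 for 15 reference genes, with none past 1.5-fold. Gusb and Tfrc, both used as reference genes, stood at 49.9 and 67.8 RPKM and at 40.3 and 26.9 RPKM. Of the 60 lists with at least 4 compared members, 8 were shifted higher and 13 lower. Shifted means at least 75% of members on one side of the median of all genes and a list median at least 0.25 log2 units from it. In non-infarcted tissue 5 lists were shifted higher and 2 lower, the latter being atrial tissue and immediate early genes. Macrophages in general, MHC class II, fibrillar collagens and skeletal muscle were shifted higher in both regions, and no list was shifted lower in both. The summed level of 4 fibroblast markers was 1541 and 2367 RPKM in infarcted tissue, most of it from the collagen genes Col1a1 and Col1a2 described above, while Pdgfra stood at 19.3 and 21.7 RPKM and Dcn at 228 and 277 RPKM, neither past 1.5-fold. The sum of 5 cardiomyocyte markers was 15011 and 9829 RPKM. The part of the tissue make-up in the differences of single genes was not tested.

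Genes that differed in infarcted tissue were compared with the same pair of genotypes in non-infarcted tissue, which shares no library with it. Of 11974 genes compared in both regions, 168 passed 1.5-fold upward in infarcted tissue, 126 did so in non-infarcted tissue, and 51 passed in both, 30.4% and 40.5% of these sets. For lower genes the sets held 179 and 59, with 26 in both, 14.5% and 44.1%. Over all 12226 genes compared in non-infarcted tissue, 139 (1.14%) were higher and 75 (0.613%) lower by at least 1.5-fold. Of the 15 genes with the highest ratio in infarcted tissue, 8 were also at least 1.5-fold higher in non-infarcted tissue, and of the 15 with the lowest ratio, 11 were also lower. Wdfy1, an endosomal FYVE domain protein, stood at 21.4 and 6.74 RPKM in infarcted and 14.6 and 4.14 RPKM in non-infarcted tissue, 3.17-fold lower (2.88 to 3.50) in infarcted tissue. Mid1, a ubiquitin ligase on microtubules, was 2.19-fold lower (2.01 to 2.39), Pirt, a regulator of sensory ion channels, 2.87-fold lower (2.31 to 3.57), and Serinc2, a membrane protein, 2.37-fold lower (1.89 to 2.97).

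**Figure D5:**
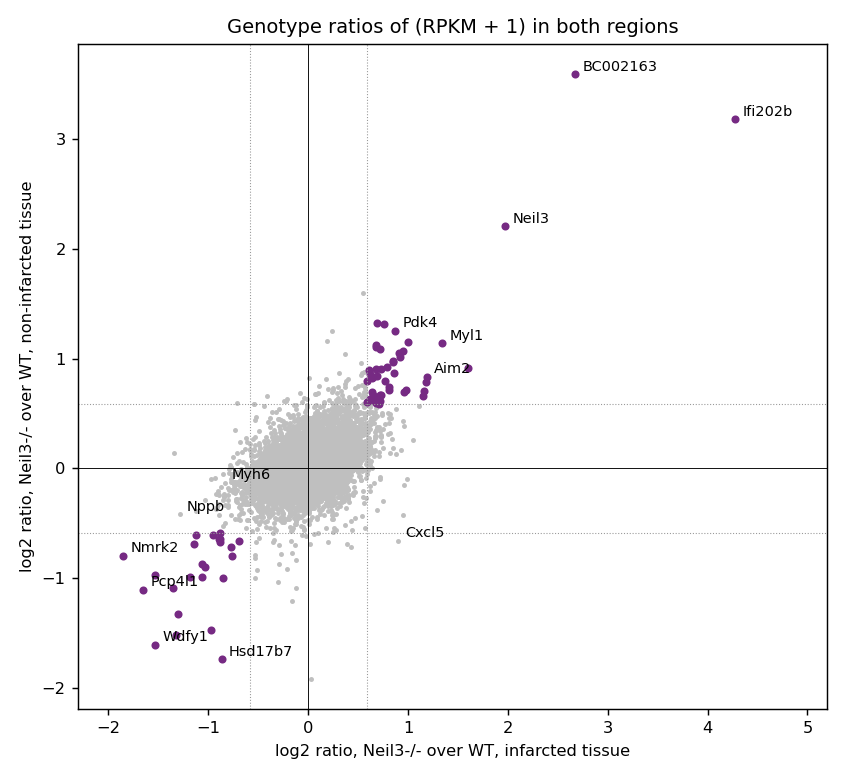
Log2 ratio of (RPKM + 1), library labelled Neil3-/- over wild type, in non-infarcted against infarcted tissue, 1 point per gene, without ribosomal and small RNA genes. Purple points passed 1.5-fold with the same sign in each region and dotted lines mark 1.5-fold. Ifi202b, Neil3 and BC002163 are high in both, Wdfy1 and Pcp4l1 low in both, and Nppb and Myh6 low in infarcted tissue.

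The remaining genes among the 15 highest and lowest were of several kinds. Rhox5, a homeobox gene, stood at 6.93 and 14.7 RPKM in infarcted and 3.86 and 3.54 RPKM in non-infarcted tissue (2.12-fold higher, 1.68 to 2.70 in infarcted tissue). Hs6st2, which sulphates heparan chains, was 2.07-fold higher (1.78 to 2.40), at 3.60 and 7.44 RPKM. In both genes the infarcted library labelled Neil3-/- was above the other 3. Smim5 and Wfdc1 were 2.20-fold lower (1.53 to 3.20) and 2.14-fold lower (1.57 to 2.95). BC002163, a gene with a provisional name chosen here after its values were seen, had 0 reads in wild-type and 49 in the infarcted library labelled Neil3-/-, at least 15.5-fold higher against a floor of 3 reads.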

How the data were processed

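RNA sequencing of 4 left ventricle libraries was analysed from tables with 1 row per gene. The deposited tables give the count of uniquely assigned reads per gene, and the deposited RPKM equals that count divided by gene length and by the library's total. When the same length of a gene was taken for all libraries, 36 values were off this relation. The coverage column is in percent, per the file headers, and was read as the share of a gene's length with reads. The submitters' processing notes name build mm9. The sources used here name no aligner, counter, annotation or strand setting. A gene absent from a table was taken as 0 reads. Of 17550 genes in any library, 99.5% matched a RefSeq table of GRCm38, used for chromosome and order only; promoter sequences came from RefSeq too. At these depths 1 read on a 2 kb gene is 0.0290 RPKM in wild-type and 0.0275 RPKM in the infarcted library labelled Neil3-/-.

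Log2 ratios of RPKM with a pseudocount of 1 were computed between infarcted libraries for genes at 1 RPKM or more in either. Folds of single genes are ratios of reads scaled to library totals, which equal ratios of RPKM at the same gene length. Their exact Clopper-Pearson 95% intervals come from the reads and cover counting error only. A group at 0 reads was set at a floor of 3 reads. The calls were tested on simulated data. The simulation held counting noise only, with no difference between mice, so it checks the computation alone. With 1 library per group no test between groups was run. Named genes are Neil3, the 15 highest and 15 lowest ratios among genes at 5 RPKM or more (provisional, ribosomal and small RNA names left to counts), up to 6 members with the largest ratio per list, and defining cell type markers. Other members named for a contrast within a list (such as Acta1, Nppa, Ciita or Atp2a2) and genes named by position were chosen after their values were seen. The 65 gene lists hold 973 different genes, of which 959 were found and 48 stand in more than 1 list. The comparison, members and lists were chosen with earlier results of these data known. Alternatives were other pseudocounts, other filters and other scalings, among them TMM from edgeR 4.0.16 in R 4.3.3 as a factor on library totals, and Python 3.11.15 with scipy 1.17.1 was used for the rest. Some genes that the naming rule selects are not reported here.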

Additional observations from a re-analysis of the deposited data

Results flagged for a closer look

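Cxcl5, a chemokine that attracts neutrophils, differed in direction between regions. Its log2 ratio of (RPKM + 1), library labelled Neil3-/- over wild type, was 0.90 in infarcted tissue, from 15.2 and 29.2 RPKM, and -0.66 in non-infarcted tissue, from 2.72 and 1.35 RPKM. The levels in non-infarcted tissue were low in both libraries. The difference between regions was not tested, since each value rests on 1 library per group. The gene 1700020L24Rik, with a provisional name, also passed 1.5-fold in opposite directions, with log2 ratios of -0.71 in infarcted and 0.60 in non-infarcted tissue, which was not tested either.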

How the results depend on the processing

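The number of genes past a fold moved most with the pseudocount. With 0.1 RPKM, 363 genes were at least 1.5-fold higher and 341 lower, and 70 and 71 past 2-fold. With 5 RPKM the numbers were 65 and 86, and 9 and 7. Among genes at 5 RPKM or more, 18 were higher and 14 lower past 2-fold. Without ribosomal and small RNA genes, an alternative chosen after seeing the data, 12 were higher and 19 lower past 2-fold. Under TMM scaling 160 were higher and 226 lower past 1.5-fold, and under median-ratio scaling 167 and 215. These scalings moved log2 ratios of plain RPKM by -0.03 and -0.02, and ratios of (RPKM + 1) by less in weakly expressed genes. Without a filter on low values 223 and 215 passed. The 3 scalings tried left 8 lists shifted higher and 13 lower, and the other settings gave 7 to 12 higher and 11 to 13 lower. No paired analysis was possible because each group has 1 library, and leaving out a library would leave no comparison. Weakly expressed genes are limited by depth: 3 reads on a 2 kb gene are 0.0869 RPKM in wild-type infarcted tissue. Whether the differences recur between mice was not measured.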
